A study of Mus musculus with 16 samples.

Results

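TGF-β (transforming growth factor β) is secreted bound to its own propeptide, and this latent form is tied by disulfide bonds to a latent TGF-β binding protein (LTBP), which deposits it in the extracellular matrix. The latent complex is opened by integrins, proteases or thrombospondin, and the freed ligand signals through a pair of receptor kinases and the Smad transcription factors. In the peritoneal cavity, resident macrophages depend on the transcription factor GATA6, and TGF-β is a known product and regulator of macrophages in tumors.

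The 10 genes described here are the 3 TGF-β ligands (Tgfb1, Tgfb2, Tgfb3), the 4 latent TGF-β binding proteins (Ltbp1, Ltbp2, Ltbp3, Ltbp4), the type I and type II receptors (Tgfbr1, Tgfbr2) and Tgfbi, a matrix protein named for its induction by TGF-β. They were taken by gene symbol from the 55604 gene identifiers in the count files, and all 10 passed the filter on low counts. No cutoff on the counts picked them, but the list was chosen with earlier results of these data known. The study had itself reported high Ltbp1 and Tgfb2 in Tim-4+ TAMs. RNA came from tumor-associated macrophages (TAMs) of the peritoneal cavity of C57BL/6 mice that carried ID8, a mouse ovarian cancer cell line, and the cells were separated by Tim-4, a surface receptor for phosphatidylserine encoded by Timd4. The mice were females of 6 to 8 weeks at injection of luciferase-expressing ID8 cells into the peritoneal cavity, and TAMs were taken 6 to 7 weeks later. Both subsets came from tumor-bearing mice, so no tumor-free group enters. The 8 libraries form 4 numbered pairs (793, 784, 783 and 779), each with 1 Tim-4+ and 1 Tim-4- library, and the labels do not say whether a number stands for 1 mouse or a pool.

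Most tumor cells and dead cells were spun out on a Ficoll gradient beforehand. Tim-4+ cells were then held on magnetic beads through an antibody to Tim-4, and Tim-4- TAMs were taken from the remaining cells with F4/80 beads, so other cells can remain in either fraction. Library totals ran from 53527928 to 69594245 counts. Timd4 measured 524 to 1744 CPM (counts scaled to the size of the library) in the Tim-4+ libraries and 1.97 to 85 CPM in the Tim-4- libraries, with the Tim-4- library of pair 793 the highest of its group. Macrophage markers were abundant in both subsets, with the 7 listed genes summing to 43065 to 55630 CPM in Tim-4+ TAMs and 20681 to 33265 CPM in Tim-4- TAMs. Lyz2 made up most of these sums (33413 to 46931 and 16052 to 27076 CPM). In the test described below, 5 of the 7 were higher in Tim-4+ TAMs. Mrc1 was lower (log2 fold change -1.09), and Csf1r was not called (log2 fold change 0.25). Monocyte markers (Ccr2, Ly6c2) summed to 7.36 to 16.4 and 121 to 144 CPM. The 11 listed markers of mesothelium and epithelium, which line the cavity or form the tumor, were all measured and all 11 were lower in Tim-4+ TAMs, with sums of 116 to 417 against 470 to 2219 CPM. In bulk RNA, fewer cells of a type and less RNA per cell cannot be told apart.

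Tgfb2 and Ltbp1 were also the genes for which quantitative PCR primers were designed in the same study, and the primers are shown because they fix which part of each transcript that assay reads. All coordinates are on GRCm38. Both Tgfb2 primers lie in coding sequence of the transcript Tgfb2-201, with the forward primer in exon 2 at chr1:186649823-186649845 and the reverse primer in exon 3 at chr1:186632743-186632765, and they frame 179 bases of the mRNA. The Ltbp1 forward primer spans the junction of exons 33 and 34 of Ltbp1-201, the reverse primer lies in exon 34 at chr17:75390485-75390507, and 153 bases lie between their outer ends. Exon 34 is the last of 34 exons. Both primers match 4 of the 6 annotated protein-coding Ltbp1 transcripts and both of the protein-coding Tgfb2 transcripts, whereas the counts below cover every exon of the gene.
Tgfb2 forward: gtctcaacaatggagaaaaatgc
Tgfb2 reverse: ctggttttcacaaccttgctatc
Ltbp1 forward: caagatgacctgtgtcgatgtaa
Ltbp1 reverse: ggtgtacagtagttgggcttgtc

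Of the 10 genes, 3 were higher in Tim-4+ TAMs (Ltbp1, Tgfb2, Tgfb1), 2 were lower (Ltbp4, Tgfb3) and 5 did not pass the test. Over all 16861 genes tested, 17.4% were called in either direction, 8.97% higher and 8.43% lower. The call was an adjusted p under 0.05 in edgeR's quasi-likelihood test, blocked on the pair and adjusted by Benjamini-Hochberg over all tested genes, and every adjusted p below is from that test. Their median log2 fold change was -0.24, beside 0.00 for all tested genes. In 4 of the 10 the Tim-4+ and Tim-4- libraries did not overlap, which was true of 12.8% of all tested genes. The calls rest on the pairing: with no pair block in edgeR, 0 of the 10 were called in either direction (adjusted p 0.0535 for Ltbp1, 0.0576 for Tgfb2, 0.0568 for Ltbp4, 0.0609 for Tgfb3 and 0.291 for Tgfb1). That fit called 147 of all 16861 tested genes higher and 85 lower, so the loss was not particular to the 10. In it, 5 of the 10 had an unadjusted p under 0.05, a count with no all-gene share beside it. The log2 fold changes of the 5 called genes kept their sign. The calls of Ltbp1, Tgfb2, Ltbp4 and Tgfb3 were also lost when genes with as little as 1 count in any library were kept (adjusted p 0.0828, 0.0887, 0.0741 and 0.299), with the direction unchanged.

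**Figure D1:**
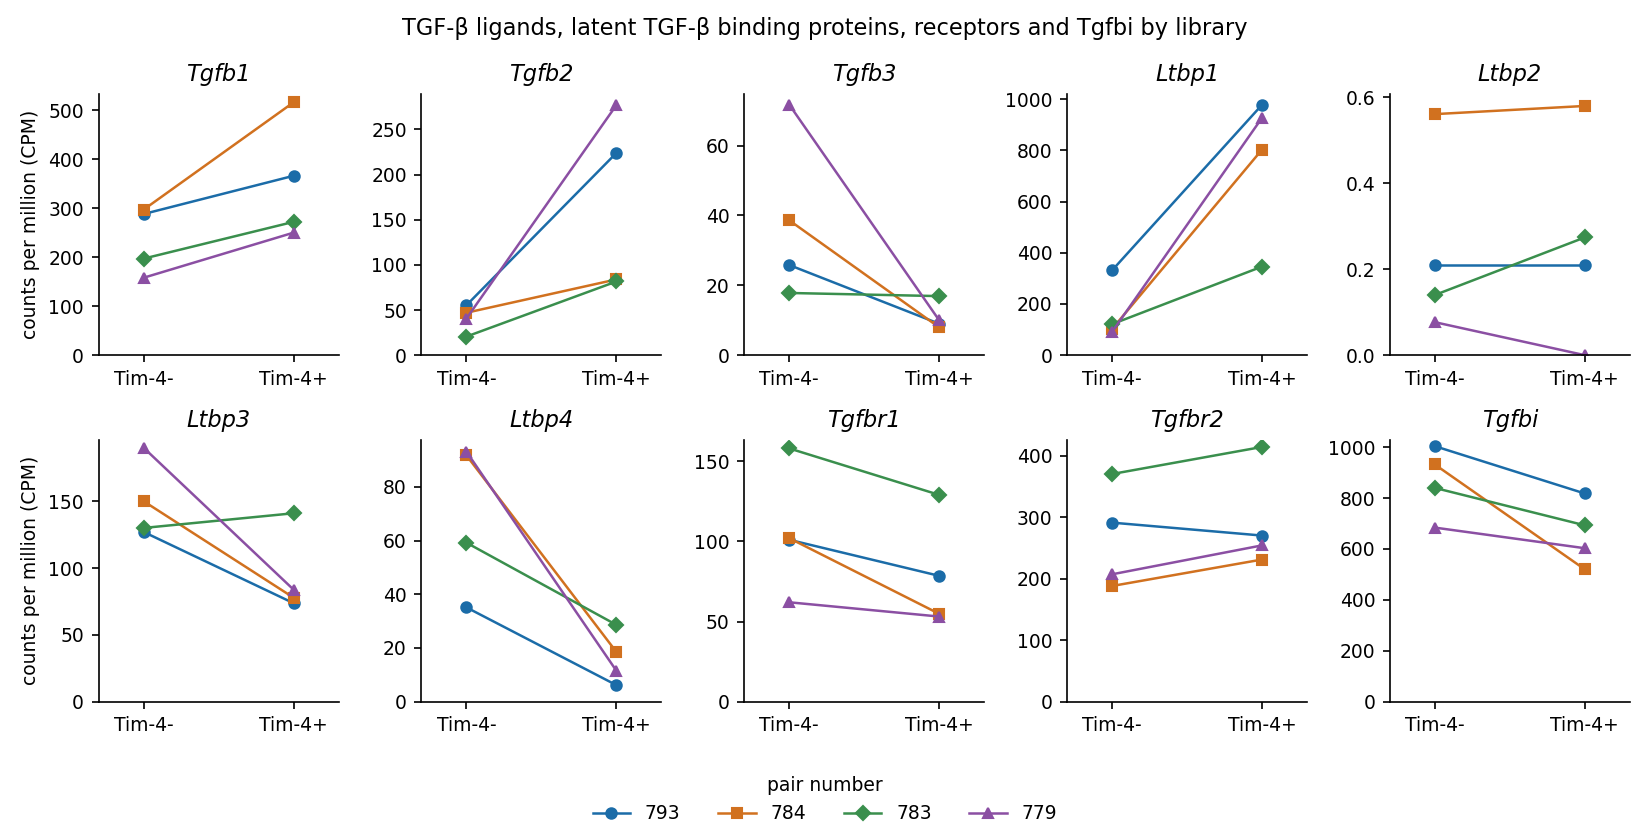
TMM-scaled CPM of each of the 10 genes in every library, with lines joining the Tim-4- and Tim-4+ library of a pair and a separate axis from 0 for each gene. Every line rises for Tgfb1, Tgfb2 and Ltbp1, and every line falls for Ltbp4, Tgfbr1 and Tgfbi, while the Tgfb3 line of pair 783 is nearly level (17.8 to 16.9 CPM).

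Among the ligands, Tgfb2 differed most upward. Tgfb2 (chr1:186622792-186705989, minus strand) measured 224, 83.9, 81.6 and 277 CPM in the Tim-4+ libraries of pairs 793, 784, 783 and 779, and 55.3, 47, 20.6 and 40.6 CPM in the matching Tim-4- libraries. All 4 Tim-4+ libraries lay above all Tim-4- libraries, although pairs 784 and 783 stood well below the other two among the Tim-4+ libraries. The fitted difference was 3.75-fold (log2 1.91, SE 0.30, adjusted p = 0.0128), with log2 ratios from 0.84 in pair 784 to 2.77 in pair 779. Without pair 793 the log2 fold change was 1.88 and the adjusted p 0.0559.

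Tgfb1 (chr7:25687002-25705077, plus strand), the ligand most abundant in immune cells, measured 366, 516, 272 and 250 CPM in Tim-4+ TAMs against 288, 297, 197 and 158 CPM in Tim-4- TAMs, in the same order of pairs. The subsets overlapped, because the levels of both moved with the pair, yet the Tim-4+ library was the higher in 4 of 4 pairs. The fitted difference was 1.48-fold (log2 0.57, SE 0.12, adjusted p = 0.0222). It was not past the threshold without pair 784 (adjusted p = 0.103) or pair 779 (adjusted p = 0.083), nor when libraries were scaled by their totals, which gave a log2 fold change of 0.21 (adjusted p = 0.121).

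Tgfb3 (chr12:86056745-86079041, minus strand) went the other way. It measured 8.99, 7.96, 16.9 and 9.97 CPM in Tim-4+ TAMs and 25.8, 38.6, 17.8 and 71.7 CPM in Tim-4- TAMs. The groups did not overlap, but pair 783 showed almost no difference (log2 ratio -0.07), whereas pair 779 showed the widest (-2.85). The fitted log2 fold change was -1.70 (SE 0.45, adjusted p = 0.0478), close to the threshold. The call was lost without pair 793 (adjusted p = 0.138), without pair 784 (adjusted p = 0.174) and without pair 779 (adjusted p = 0.153).

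The LTBPs split in the same manner. Ltbp1 (chr17:75005568-75392512, plus strand), a large matrix glycoprotein that binds all of the TGF-β propeptides, measured 978, 803, 346 and 927 CPM in Tim-4+ TAMs and 331, 102, 121 and 90.6 CPM in Tim-4- TAMs. The lowest Tim-4+ library (pair 783) was only slightly above the highest Tim-4- library (pair 793). The fitted difference was 5.09-fold (log2 2.35, SE 0.37, adjusted p = 0.0127), and the log2 ratios of the pairs ran from 1.51 to 3.36. Leaving out pair 784 gave a log2 fold change of 2.12 and an adjusted p of 0.0718. The Tim-4- library of pair 793, with the most Ltbp1 of its group, was also the one with the most Timd4 (85 CPM, against 1.97 to 22.3 CPM in the other three), and the part of remaining Tim-4+ cells in that value was not tested. Its second lane, listed by identifier like all the others, held 2804 of its 5669 Timd4 counts.

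Ltbp4 (chr7:27305136-27337692, minus strand), which binds the Tgfb1 propeptide and takes part in elastic fiber assembly, measured 6.16, 18.5, 28.6 and 11.5 CPM in Tim-4+ TAMs and 35.1, 91.7, 59.2 and 93.1 CPM in Tim-4- TAMs. No Tim-4+ library reached the lowest Tim-4- library. The fitted difference was 4.67-fold lower (log2 -2.22, SE 0.32, adjusted p = 0.0104), and it was the smallest adjusted p of the 10 genes. Without pair 784 the adjusted p was 0.065, with a log2 fold change of -2.20.

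Ltbp3, the other LTBP with a clear level in these cells, measured 73.7, 77.8, 141 and 83.8 CPM in Tim-4+ TAMs and 127, 150, 130 and 190 CPM in Tim-4- TAMs. It was lower in 3 of 4 pairs, with the Tim-4+ library of pair 783 standing apart from the rest of its group, and did not pass the test (log2 -0.70, SE 0.21, adjusted p = 0.062). Without pair 783 it did (log2 -0.97, adjusted p = 0.001). Ltbp2, which does not bind latent TGF-β, was near the limit of detection, with 0 to 29 counts in the Tim-4+ libraries and 5 to 41 counts in the Tim-4- libraries. The fitted log2 difference was -0.08 (SE 0.69, adjusted p = 0.95), so no difference was detectable at this depth.

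**Figure D2:**
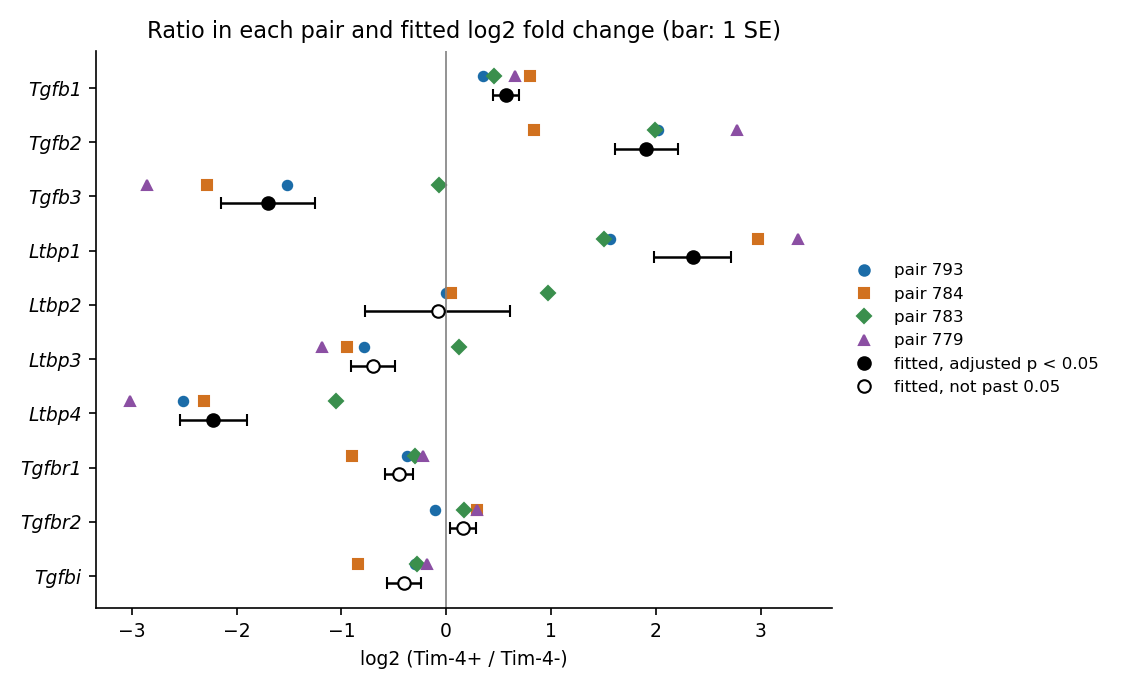
Log2 ratio of Tim-4+ to Tim-4- TAMs in each pair (coloured marks) and the fitted log2 fold change with a bar of 1 SE (black), filled where the adjusted p was under 0.05. The ratios of a pair with 3 counts or fewer in a library are not drawn. Ltbp1 and Tgfb2 lie farthest to the right and Ltbp4 and Tgfb3 farthest to the left, and the 4 pairs of Tgfbr1, Tgfbr2 and Tgfbi lie within 1 log2 unit of 0.

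Neither receptor nor Tgfbi passed the test. Tgfbr1, the type I receptor kinase that phosphorylates Smad2 and Smad3, measured 78.5, 54.8, 129 and 53.1 CPM in Tim-4+ TAMs and 101, 102, 158 and 62 CPM in Tim-4- TAMs. It was lower in 4 of 4 pairs with overlapping groups and just missed the threshold (log2 -0.45, SE 0.13, adjusted p = 0.0549). Tgfbr2, the type II receptor that binds the ligand first, measured 270, 231, 414 and 254 CPM against 291, 188, 370 and 207 CPM, a log2 fold change of 0.16 (SE 0.12, adjusted p = 0.397). Both receptors were highest in the 2 libraries of pair 783.

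Tgfbi, which codes for a secreted protein that binds collagen and integrins, measured 818, 520, 693 and 603 CPM in Tim-4+ TAMs and 1004, 932, 840 and 684 CPM in Tim-4- TAMs. The Tim-4+ library was the lower in 4 of 4 pairs, but the log2 fold change of -0.40 (SE 0.16, adjusted p = 0.115) did not pass the test. Under scaling by library totals and in DESeq2, Ltbp3, Tgfbr1 and Tgfbi joined the genes called lower, which made 5 of 10. The calls lower among all tested genes rose as well, from 1421 to 4906 under library totals and to 2328 in DESeq2.

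Levels of different genes can be set side by side only per length, here as CPM per kilobase of merged exons. On that scale Tgfbi was the most abundant of the 10 in both subsets, at 175 ± 33.8 in the Tim-4+ subset against 229 ± 36.6 in the Tim-4- subset (SD, n = 4), and its range stood clear of the next gene in each. The next place was held in Tim-4+ TAMs by Ltbp1 (71.4 ± 26.9) and Tgfb1 (69.5 ± 24), which overlapped and exchanged order between libraries (Ltbp1 the higher in 2 of 4). In Tim-4- TAMs Tgfb1 (46.6 ± 13.5) came next and Ltbp1 (15.1 ± 10.7) held place 6, overlapping Tgfbr1 above it and Tgfb3 below it. Tgfb2 ranked 5 in Tim-4+ TAMs (28.7 ± 17.1), overlapping Tgfbr2 (35.7 ± 10.1), and 9 in Tim-4- TAMs (7.06 ± 2.55), overlapping Ltbp4 (10.8 ± 4.32). Ltbp2 was last in both, at 0.0325 ± 0.0293 and 0.0302 ± 0.0264.

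The makeup of each family, as shares of its summed CPM per kilobase, was worked out after the values were seen and is given as a description. Tgfb1 made up most of the ligand sum in both subsets (68.2% ± 15.5 in the Tim-4+ and 71.6% ± 12.9 in the Tim-4- subset, SD, n = 4). Tgfb2 made up 12.2% to 47.7% in the Tim-4+ subset against 7.43% to 12.9% in the Tim-4- subset, and Tgfb3 made up 1.98% to 6.85% against 10.3% to 35.6%. Tgfb2 was the second ligand in all 4 Tim-4+ libraries and in the Tim-4- library of pair 793, and Tgfb3 in the other 3 Tim-4- libraries. In pair 779 the Tim-4+ library held nearly as much Tgfb2 (47.7%) as Tgfb1 (49.4%), while its Tim-4- partner held 35.6% Tgfb3. Summed over the 3 ligands, the level was 102 ± 20.6 CPM per kilobase in the Tim-4+ subset against 65 ± 14 in the Tim-4- subset.

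Among the LTBPs, Ltbp1 alone made up 61.7% to 90.9% of the sum in Tim-4+ TAMs, whereas in Tim-4- TAMs its share was 19.3% to 61.5%. Ltbp3 made up 39.4% ± 8.42 in the Tim-4- subset but 14.3% ± 10.3 in the Tim-4+ subset, and Ltbp4 made up 26.2% ± 11 and 3.63% ± 3.35 (SD, n = 4). The LTBP sum was 84.3 ± 22.1 CPM per kilobase in the Tim-4+ subset against 42.4 ± 6.5 in the Tim-4- subset. The Tim-4+ library of pair 783 had the lowest Ltbp1 share of its group, and the Tim-4- library of pair 793 the highest of its own.

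**Figure D3:**
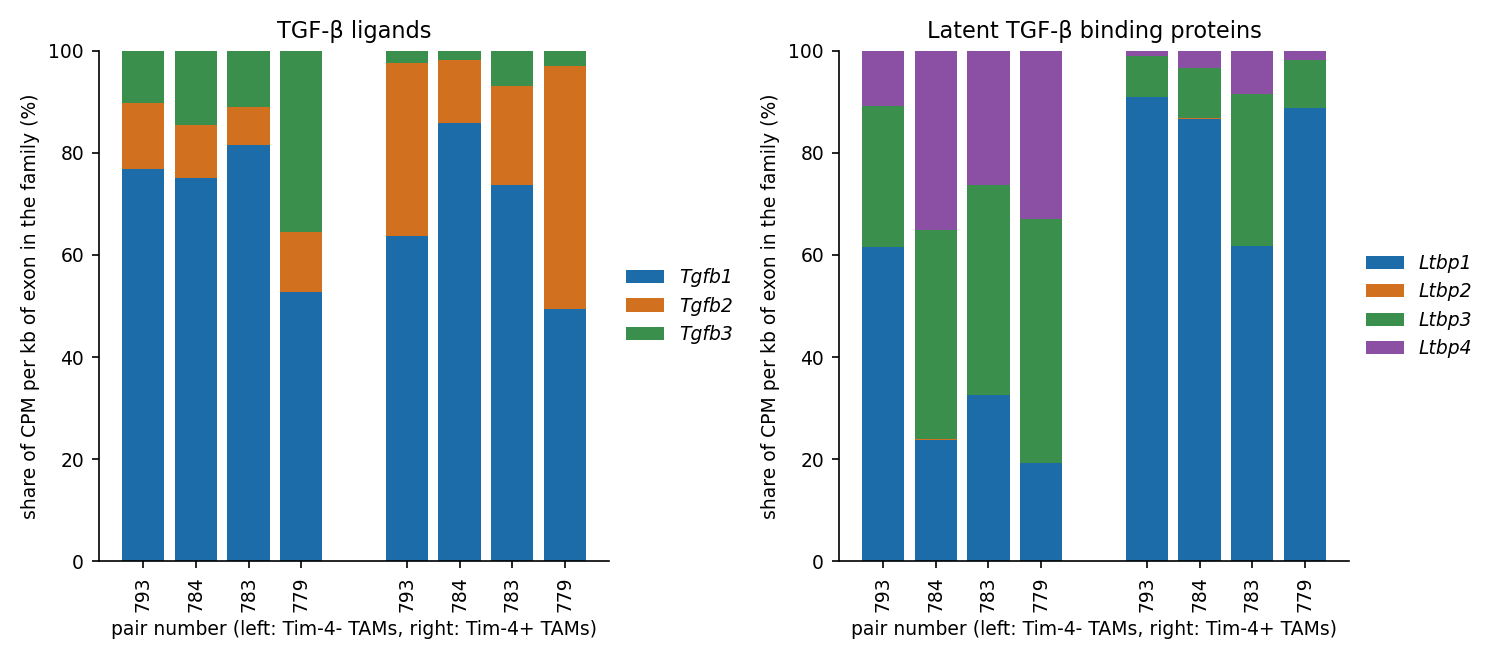
Share of each gene in the summed CPM per kilobase of its family, 1 bar per library, with the Tim-4- libraries on the left and the Tim-4+ libraries on the right of each panel. Ltbp1 fills 61.7% to 90.9% of the LTBP bars in Tim-4+ TAMs, and Tgfb3 is the thinnest ligand segment there (1.98% to 6.85%).

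Both genes that were lower were set beside the mesothelial and epithelial markers, library by library. In the Tim-4- libraries of pairs 793, 784, 783 and 779 the 11 markers summed to 470, 1418, 952 and 2219 CPM, and in the Tim-4+ libraries to 116, 208, 417 and 249 CPM. Within the Tim-4- group the order of the libraries by this sum was the same as their order by Ltbp4, and for Tgfb3 pairs 793 and 783 changed places. Within the Tim-4+ group pair 783 had the highest sum, the most Ltbp4, the most Tgfb3 and the most Ltbp3. The rest of that order was not kept: Ltbp4 was higher in pair 784 (18.5 CPM) than in pair 779 (11.5 CPM), and Tgfb3 was lowest in pair 784 (7.96 CPM). From the Tim-4- to the Tim-4+ library of pair 783 the marker sum went from 952 to 417 CPM and Ltbp4 from 59.2 to 28.6 CPM. Tgfb3 went only from 17.8 to 16.9 CPM there, and Ltbp3 from 130 to 141 CPM. None of the 11 markers was at 0 in a Tim-4+ library. Fibroblast markers summed to 19.6 to 90.8 CPM in Tim-4+ TAMs and 50 to 173 CPM in Tim-4- TAMs, with 1 of the 6 tested (Dcn) lower. Mast cell markers summed to 0.433 to 26.6 CPM in the Tim-4- libraries and 0.56 to 1.56 CPM in the Tim-4+ libraries, with 1 of the 4 (Mcpt4) called lower. In pair 783 the Tim-4- sum (0.433 CPM) was below the Tim-4+ sum (0.713 CPM). The part of these cells in the lower Tgfb3, Ltbp4 and Ltbp3 of Tim-4+ TAMs was not tested.

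**Figure D4:**
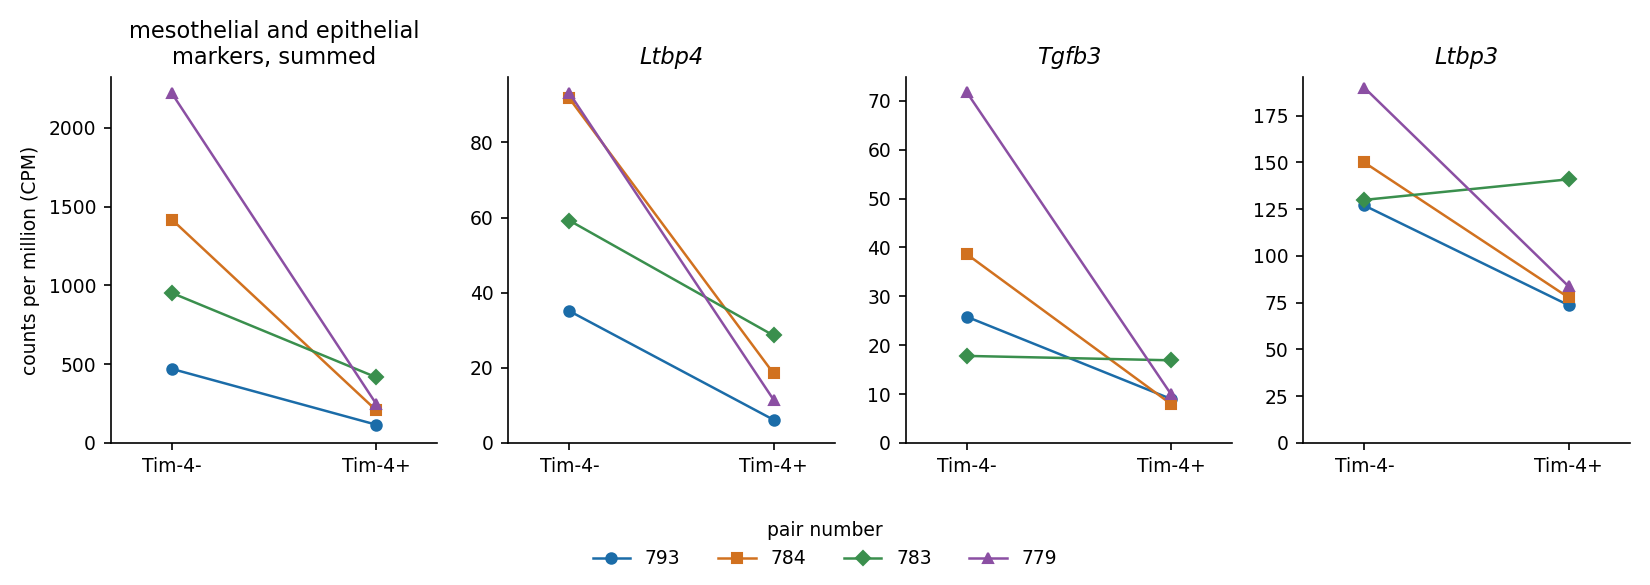
Summed CPM of the 11 mesothelial and epithelial markers and CPM of Ltbp4, Tgfb3 and Ltbp3 in each library, with lines joining the libraries of a pair and each axis starting at 0. Pair 779 has the highest marker sum (2219 CPM) and the most Tgfb3 (71.7 CPM) among the Tim-4- libraries, and pair 783 has the highest of both among the Tim-4+ libraries.

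Platelets also carry Tgfb1, Ltbp1 and Lrrc32. Of their 6 listed markers, Gp1bb had 0 counts in all 8 libraries, and Ppbp, Gp9 and Gp6 averaged under 0.1 CPM in both subsets. Itga2b was not called (log2 -0.93, adjusted p = 0.177). Pf4, a chemokine that macrophages express too, was higher in Tim-4+ TAMs (698 against 167 CPM, log2 2.09, adjusted p = 0.00855). The part of platelets in Tgfb1, Ltbp1 and Lrrc32 was not tested.

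Beyond the 10 genes, 63 further genes of the pathway were listed by role, and 61 of them were tested (Itgb6 and Fbn2 were too low). Of these, 11 were higher and 10 lower in Tim-4+ TAMs, 40 did not pass the test, and the median log2 fold change was 0.05. The shares of 11 and 10 in 61 stand beside the 8.97% and 8.43% of all tested genes, and the list was drawn up with results of these data known. With no pair block the counts were 1 and 2, and without pair 784 they were 1 and 1.

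**Figure D5:**
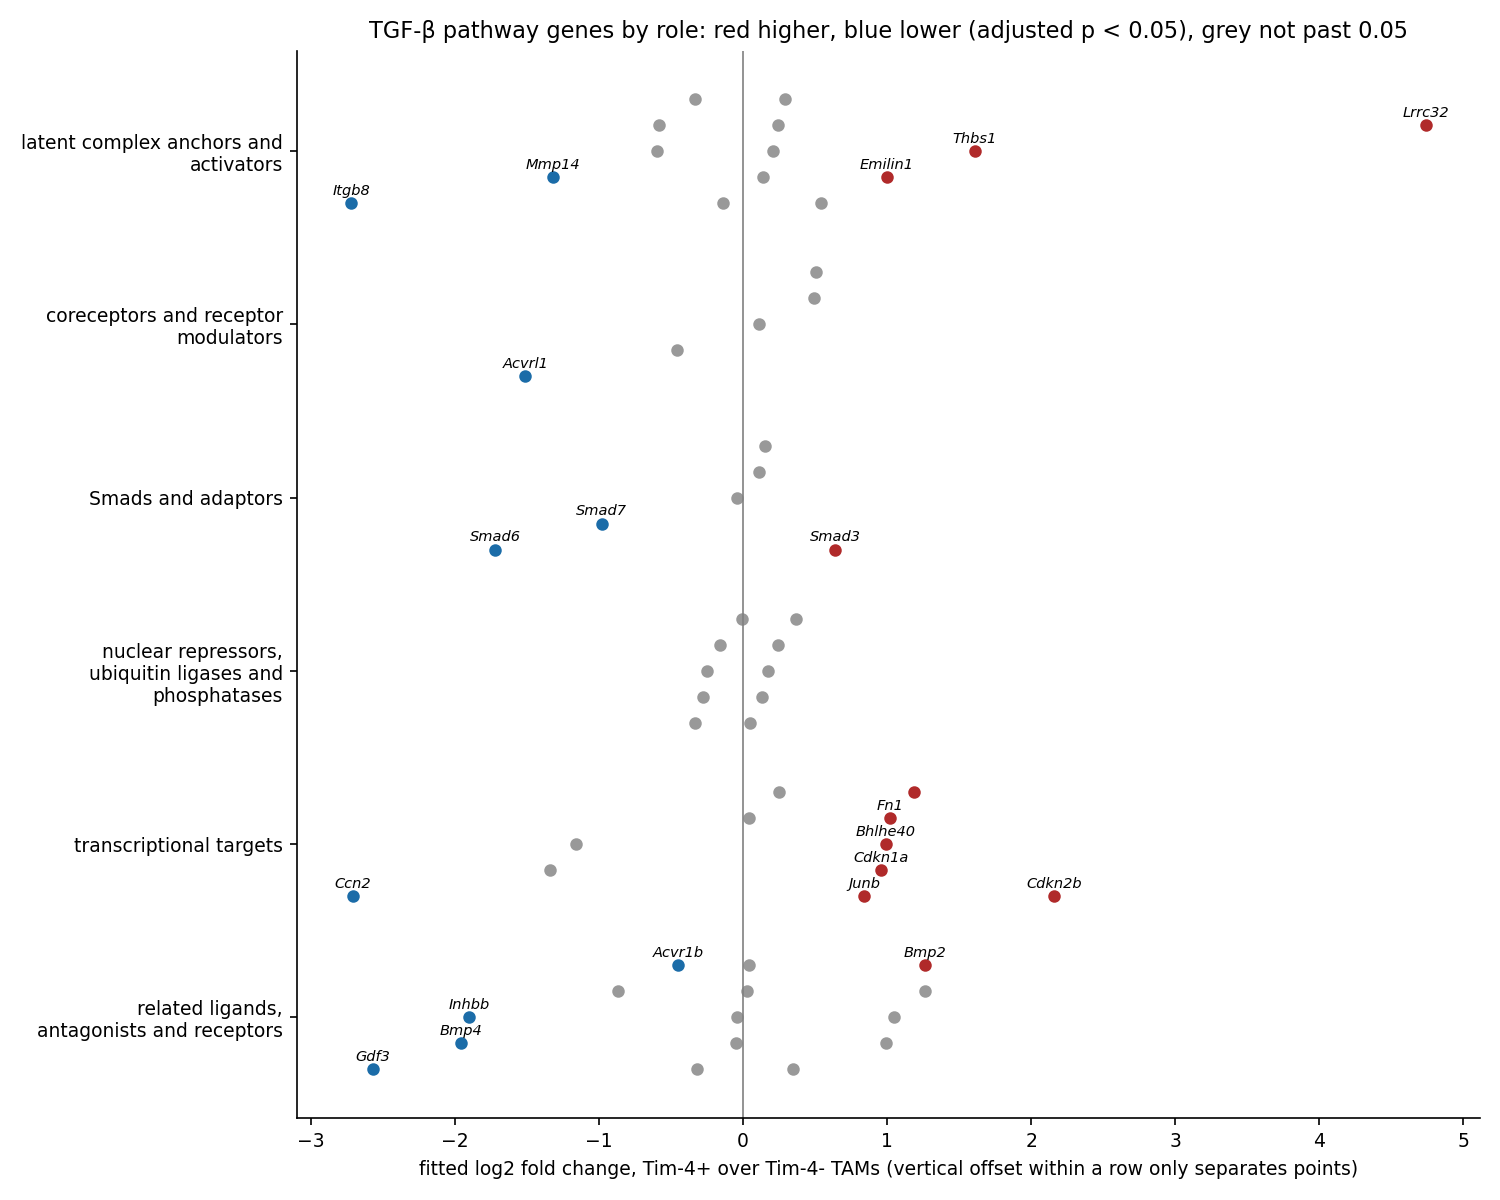
Fitted log2 fold change of the 61 tested pathway genes by role, with genes higher in Tim-4+ TAMs in red, lower in blue and the rest in grey. Lrrc32 stands at 4.74, and the 10 nuclear repressors, ubiquitin ligases and phosphatases lie close to 0 with none called, beside 17.4% of all tested genes called. Of the 11 transcriptional targets, 6 are red and 1 is blue, beside 8.97% and 8.43% of all tested genes. These counts hold for this list only: Smad7 is drawn with the Smads, and Tgfbi is not drawn.

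Among the anchors and activators of the latent complex, Lrrc32 had the largest difference. It codes for GARP, a membrane protein that holds latent TGF-β on the cell surface in place of an LTBP, and measured 20.8, 8.1, 8.3 and 11 CPM in Tim-4+ TAMs against 1.63, 0.0547, 0.242 and 0.583 CPM in Tim-4- TAMs. The groups did not overlap (log2 4.74, SE 0.52, adjusted p = 0.0065), and the highest Tim-4- value was again that of pair 793. Nrros, the related anchor of macrophages and microglia, was present at 322 ± 28.3 and 285 ± 69.3 CPM and did not pass the test (log2 0.21, SE 0.16, adjusted p = 0.41). Thbs1, whose product thrombospondin-1 can release TGF-β from its propeptide, was higher (log2 1.61, SE 0.29, adjusted p = 0.0137). Emilin1, an elastic fiber protein named after its values were seen, was higher too (423 ± 123 against 212 ± 59.7 CPM, adjusted p = 0.0407). The listing of Emilin1 here does not make it an activator, and whether its product activates or restrains TGF-β was not tested. Itgb8, a subunit of an integrin that binds latent TGF-β, was lower (log2 -2.72, SE 0.59, adjusted p = 0.0283), and so was the membrane protease gene Mmp14 (log2 -1.32, SE 0.19, adjusted p = 0.00875).

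Of the 5 coreceptors and receptor modulators, Acvrl1, a type I receptor known from endothelium, was lower (22.6 ± 11.6 against 59.8 ± 9.97 CPM, log2 -1.51, adjusted p = 0.00535). The coreceptors Tgfbr3 (log2 -0.46, adjusted p = 0.183) and Eng (log2 0.11, adjusted p = 0.672) did not pass the test. Smad3, the transcription factor that carries the signal to the nucleus, was higher at 268 ± 110 against 177 ± 83.3 CPM (log2 0.64, SE 0.13, adjusted p = 0.0198), with overlapping groups and 4 of 4 pairs in that direction. Both inhibitory Smads were lower. Smad7 measured 11.1, 15.1, 15.8 and 10 CPM in Tim-4+ TAMs and 27.1, 25.4, 22 and 26.7 CPM in Tim-4- TAMs, with no overlap (log2 -0.98, SE 0.18, adjusted p = 0.0135). Smad6 measured 2.82, 4.08, 5.41 and 1.48 CPM against 10.2, 11.7, 7.35 and 13.2 CPM (log2 -1.72, SE 0.42, adjusted p = 0.0365). The most Smad6 was in the Tim-4- libraries of pairs 779 and 784, which also had the highest mesothelial marker sums. The part of those cells in Smad6 was not tested.

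Of the 11 transcriptional targets, 6 were higher, 1 was lower and 4 did not pass the test. The median log2 fold change of the 11 was 0.84. Of all tested genes, 8.97% were higher and 8.43% lower. Among the 4, Id1 (log2 -1.34, adjusted p = 0.054) and Id3 (log2 -1.16, adjusted p = 0.0515) had negative fold changes close to the threshold. Genes placed under other roles are not among the 11. These include Tgfbi, named for its induction by TGF-β (log2 -0.40, adjusted p = 0.115), and Smad7 (log2 -0.98, adjusted p = 0.0135). The counts hold for this list only, and whether TGF-β signaling differed between the subsets was not tested. Cdkn2b, a cell cycle inhibitor, was higher with no overlap (8.04 ± 3.21 against 1.86 ± 1.1 CPM, log2 2.16, SE 0.28, adjusted p = 0.00653). Ccn2, a matrix protein also made in quantity by mesothelium and fibroblasts, was lower: it measured 3.43, 4.34, 2.58 and 8.86 CPM in Tim-4+ TAMs and 15.7, 55.9, 6.49 and 98.9 CPM in Tim-4- TAMs (log2 -2.71, SE 0.42, adjusted p = 0.0125). Its highest values were in the Tim-4- libraries of pairs 779 and 784, which also had the highest mesothelial marker sums, and the part of those cells was not tested.

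Among 15 related ligands, antagonists and receptors, Bmp2 was the 1 gene higher (log2 1.26, SE 0.25, adjusted p = 0.0216). Gdf3, a TGF-β family ligand expressed by macrophages, was lower in 4 of 4 pairs with no overlap (2.97 ± 1.67 against 16.8 ± 6.9 CPM, log2 -2.57, SE 0.23, adjusted p = 0.00301). Bmp4 (log2 -1.96, adjusted p = 0.0455) and Inhbb (log2 -1.90, adjusted p = 0.0262), which codes for an activin subunit, were lower as well. Bmp4 measured 6.25, 21.1, 6.49 and 27.6 CPM in the Tim-4- libraries of pairs 793, 784, 783 and 779, in the order of their mesothelial marker sums, and was almost level in pair 783 (log2 ratio -0.10). Inhbb was also highest in the Tim-4- libraries of pairs 784 and 779 (7.78 and 5.88 CPM), with overlapping groups and a log2 ratio of -0.42 in pair 783. The part of mesothelial cells in Bmp4 and Inhbb was not tested. The 10 nuclear repressors, ubiquitin ligases and phosphatases gave 0 calls in edgeR and 0 in DESeq2, and 1 of them (Tgif1) had an unadjusted p under 0.05. With 17.4% of all tested genes called in edgeR, a count of 0 in 10 genes does not set this group apart.

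The study placed Ltbp1 and Tgfb2 among the genes downstream of GATA6. Gata6 measured 148, 161, 67.3 and 153 CPM in Tim-4+ TAMs and 78.3, 86.9, 41.9 and 120 CPM in Tim-4- TAMs (log2 0.71, SE 0.12, adjusted p = 0.0122). Pair 783 had the least Gata6 in both subsets, and among the Tim-4+ libraries it also had the least Ltbp1, Tgfb2 and Timd4 (524 CPM, against 1161 to 1744 CPM). This order did not hold throughout. Pair 784 had the most Gata6 of the Tim-4+ libraries but only 83.9 CPM of Tgfb2. Pair 779 had the most Gata6 of the Tim-4- libraries but the least Ltbp1 (90.6 CPM). The Tim-4- libraries of pairs 779 and 784, with the most Gata6 of their group, also had the highest mesothelial marker sums (2219 and 1418 CPM). The part of those cells in Gata6, and any effect of GATA6 on these genes, was not tested. Aspa (log2 2.37, adjusted p = 0.013) and Cd5l (log2 2.49, adjusted p = 0.011) differed about as much as Ltbp1, and Nt5e did not pass the test (log2 0.71, adjusted p = 0.11).

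Of the 3 genes whose log2 CPM most resembled that of Ltbp1 over the 8 libraries, among 8770 genes of sufficient level, 2 were Ccm2l (Pearson r 0.992) and Selp (0.992). Their log2 fold changes were 3.03 and 2.52. Most like Ltbp4 were Igdcc4 (r 0.993), Ptprf (0.990) and Osbpl3 (0.989), with log2 fold changes of -1.87, -2.12 and -1.84. The points share the subset and the pair, so these values are a description.

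Promoter sequence is given for Tgfb2 and Ltbp1, which were higher together, and for Ltbp4, which was lower. RefSeq windows on GRCm38.p6, from 250 bases before to 50 bases after an annotated start, were at hand for 9 of the 10 genes (13 windows, Tgfb3 without one). The SMAD element was searched as CAGAC or GTCTG, which are the same motif on opposite strands, and was in 8 of the 13 windows and in 49.6% of all 32851 windows. In the sequences below, 250 bases before each start, its matches are in capitals.
Tgfb2, chr1:186705990-186706239 (- strand): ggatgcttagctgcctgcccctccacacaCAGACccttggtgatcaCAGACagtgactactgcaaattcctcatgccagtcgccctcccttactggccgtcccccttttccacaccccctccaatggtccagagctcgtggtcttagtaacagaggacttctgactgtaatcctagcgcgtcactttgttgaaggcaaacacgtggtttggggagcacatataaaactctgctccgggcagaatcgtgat
Ltbp1 first start, chr17:75005279-75005528 (+ strand): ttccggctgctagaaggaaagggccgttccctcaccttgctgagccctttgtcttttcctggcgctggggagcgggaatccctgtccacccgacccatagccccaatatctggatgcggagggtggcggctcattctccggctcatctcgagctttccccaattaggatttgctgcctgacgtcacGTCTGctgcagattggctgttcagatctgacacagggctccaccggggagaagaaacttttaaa
Ltbp1 second start, chr17:75178531-75178780 (+ strand): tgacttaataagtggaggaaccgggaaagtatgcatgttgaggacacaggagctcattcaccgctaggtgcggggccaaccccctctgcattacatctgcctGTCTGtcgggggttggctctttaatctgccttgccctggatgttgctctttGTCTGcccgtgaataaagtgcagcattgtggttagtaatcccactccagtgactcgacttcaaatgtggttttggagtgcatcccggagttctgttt
Ltbp4 first start, chr7:27337613-27337862 (- strand): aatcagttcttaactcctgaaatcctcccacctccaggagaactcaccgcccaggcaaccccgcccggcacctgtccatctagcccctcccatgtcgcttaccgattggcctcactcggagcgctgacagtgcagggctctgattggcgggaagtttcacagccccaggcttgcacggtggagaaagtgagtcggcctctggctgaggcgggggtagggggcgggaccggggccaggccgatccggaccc
Windows with the element and windows without it were both found among the called genes. The search was not a test of regulation and says nothing of sites outside the windows. The Tgfb2 window and both Ltbp1 windows hold the element. So do those of Ltbp2, Ltbp3, Tgfbi and Tgfbr2 and 1 of the 2 of Tgfbr1, none of them called. The window of Tgfb1, which was higher, and all 3 of Ltbp4 do not hold it. The GATA motif was searched as AGATAA and AGATAG, and also as TGATAA and TGATAG, on both strands. It was in 2 of the 13 windows, those of Tgfb2 and Tgfbi, and in 29.8% of all windows. In Tgfb2 it begins at base 2 of the transcript, shown here in capitals with the 20 bases before the start (chr1:186705980-186706009, minus strand).
Tgfb2 start: gctccgggcagaatcgtgatgTTATCTgct
Neither Ltbp1 window holds these letters, which says nothing of sites outside it.

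Parts of some exons are shared with a gene on the opposite strand: 2.14% of the exonic bases of Tgfb2, 7.6% of those of Tgfb3 at the larger of its overlaps, 9.34% of those of Ltbp2 and 2.01% of those of Ltbp3. The strand setting of the counting is not given in the sources used here, so reads from those stretches cannot be assigned. Tgfb1, Ltbp1, Ltbp4, Tgfbr1, Tgfbr2 and Tgfbi share no exonic base with another annotated gene.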

How the data were processed

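Stranded total RNA libraries depleted of ribosomal RNA were run on 2 lanes each. As raw counts, not normalized, the authors deposited the number of reads per gene and lane. The submitters' processing notes name TopHat2 2.0.13, Cuffdiff 2.2.1, FastQC 0.11.3 and the builds GRCm38 and mm10, whereas the methods name another reference. The counting tool is not given in the sources used here. Lanes were summed to 1 library. The 1 lane listed by gene symbol was joined by row order after its Timd4 row, which stood first, was put back in place, and 96.9% of 53618 comparable symbols matched. Gene models are from GENCODE M21 (98.6% of identifiers found).

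The 16861 genes that reached 10 counts in 4 or more of 8 libraries were tested with edgeR 4.0.16 in R 4.3.3 (quasi-likelihood, robust, TMM factors, pair number as a block, Benjamini-Hochberg adjustment), and called at an adjusted p under 0.05. The SE is the log2 fold change divided by the square root of F. The study isolated the subsets as pairs. Deviations of same-numbered libraries from the group means correlated at r = 0.277 to 0.498, so the numbers were taken as pairs. The study's supplementary expression table appears to number the same pairs in another order, and the numbers here are those of the labels. CPM is TMM-scaled. A count of 3 is 0.0431 to 0.056 CPM, and this floor covers counting error only. The fit was tested on simulated data. Alternatives were other scalings, filters and lanes, no block, DESeq2 1.42.0 and leaving out each pair. Members and lists were chosen with earlier results of these data known. Named genes are the 10 members, Lrrc32, Nrros, Tgfbr3, Eng, Smad3, Smad7, the 12 called pathway genes with the largest change, Gata6, Aspa, Cd5l, Nt5e, the 3 genes most like Ltbp1 and the 3 most like Ltbp4 by Pearson r, and markers, and 2 genes that this rule also names are not reported here. Emilin1, Id1 and Id3 were named after their values were seen. P-values of the blocked fits measure how the difference between the subsets varies from pair to pair, and those without the block the spread between libraries. Either spread may be partly technical. Of the other marker lists, the sums in Tim-4+ and Tim-4- TAMs reached at most 2.39 and 3.7 CPM (endothelial), 13.3 and 16.6 (B cell), 0.494 and 2.17 (T cell), 15.9 and 16 (dendritic cell), 2.96 and 2.75 (neutrophil) and 0.651 and 0.63 (eosinophil).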

Additional observations from a re-analysis of the deposited data

Results flagged for a closer look

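In a comparison of each library with the other 3 of its group, over 20 groups of 4 libraries (chance gives about 1 in 20), 2 values stood apart by Dixon's test. Ltbp1 in the Tim-4- library of pair 793 was 331 CPM, with a gap to the next library of 0.872 of the group's range, and its group otherwise lay between 90.6 and 121 CPM. Ltbp3 in the Tim-4+ library of pair 783 was 141 CPM (gap 0.851 of the range), above 73.7 to 83.8 CPM in the other three.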

How the results depend on the processing

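Of 128 fits of single members under other settings, 98 kept direction and side of the threshold, 19 lost the call, 8 gained one and 3 changed sign, none of them called: Ltbp2 with no replicate block (0.11) and without pair 779 (0.32, against -0.47 without pair 783), and Tgfbr2 under total counts (-0.20), where the median of all tested genes was -0.36. The cause was not tested.

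Without the block, calls fell to 0 members higher and 0 lower, 1 and 2 of the wider list, and 147 and 85 of all genes, from 1512 and 1421. Total counts gave 5 members lower, 19 of the wider list lower, and 789 higher and 4906 lower of all genes. DESeq2 gave 5 members lower and 2328 of all genes lower. A filter of 1 count in any library gave 1 member higher (Tgfb1) and 1 lower (Tgfbr1). Lane 2 alone gave 1 lower (Ltbp4). Also asking for a 2-fold change left 7 of the wider list and 641 of all genes higher.

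Leaving out 1 pair at a time gave 1 to 3 members higher and 0 to 3 lower, 1 to 11 and 1 to 14 of the wider list, and 91 to 1608 and 67 to 1975 of all genes. The lowest of each was without pair 784. Leaving out the symbol-listed lane was added after seeing the data. Over all settings the adjusted p ran from 2.22e-11 to 0.0828 for Ltbp1, 1.12e-09 to 0.0887 for Tgfb2, 0.000312 to 0.291 for Tgfb1, 1.32e-11 to 0.0741 for Ltbp4 and 9.28e-05 to 0.299 for Tgfb3.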
